A study of Mus musculus with 3 samples.

Results

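Enterocytes, the absorptive cells of the intestinal lining, take up sugars, amino acids, ions, bile acids, metals and vitamins through membrane carriers of the solute carrier (SLC) families. Apical carriers, many of them driven by the sodium or proton gradient, bring solutes in from the lumen, and basolateral carriers and exchangers pass them on to the blood. HNF4A and HNF4G are paired nuclear receptors of the intestinal epithelium that bind DNA and are known there for driving enterocyte genes. The 36 genes described here encode such nutrient and ion transporters and are listed by name for their function in absorption. A region was counted for a gene when it overlapped the gene body or the 10 kb on either side. All 36 could be placed on the coordinates of the deposited peak lists, among 20431 of 21887 protein-coding genes. Of the 33564 regions of the series, 78 lay at them, 55 in a gene body and 25 also within 10 kb of another gene. Genes were placed by a local shift that puts gene starts on peaks. The placement was least certain for Slc5a9, the only one whose shifts over 5 and 3 Mb disagreed. The start-site hits were also few beside those of the next best shift at Slc5a1 (31 against 26), Slc16a1 (16 against 11) and Slc19a3 (9 against 6). For these the shifts over 5 and 3 Mb agreed within 1 kb.

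The libraries are ATAC-seq, an assay in which the transposase Tn5 cuts accessible DNA, made from E16.5 mouse midgut epithelium collected with EpCAM beads (20000 cells per library). The 1 control library has the genotype Hnf4gCrispr/+, heterozygous for the Hnf4g mutation. Its label lists neither Shh-Cre nor a floxed Hnf4a allele. Double knockout (DKO) libraries, replicates 1 and 2, carried Shh-Cre, Hnf4af/f and Hnf4gCrispr/Crispr. Shh-Cre is active in the embryonic gut endoderm, from which the epithelium forms, and the Hnf4gCrispr allele does not depend on Cre. The labels do not say whether a library came from 1 embryo or a pool, nor whether the DKO replicates were separate embryos, and with 1 control library no test of the genotype was possible. All differences below are therefore descriptions, and the difference between the DKO replicates is the only replicate error.

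The control list held 16977 peaks and the lists of DKO replicates 1 and 2 held 18268 and 26648, each peak a window of fixed width with the authors' whole-number score. Median scores were 21, 24 and 22. The score's scale is not stated, so each peak is also given its percentile rank among the scores of its list, a high rank being a high score. Region coordinates are on the build of the lists, mm9, and differ from the GRCm38.p6 coordinates of the promoters. Sequencing depth is unknown, and a missing peak means that none was called, not that the DNA was closed. Start sites (within 1 kb) of the epithelial genes Epcam and Cdx2 carried a peak in every library. Of 6 epithelial markers with a known start site, 2 had a start-site peak in the control and 4 in each DKO library. Of 10 markers of mesenchyme, blood, endothelium and neural cells, the control had 0, DKO replicate 1 had 2 (Acta2 and Elavl4) and DKO replicate 2 had 1 (Elavl4), and their part in the results was not tested. Peak calls do not check the knockout. At Hnf4a the control had 3 peaks and the DKO replicates 4 and 6, and Hnf4g was not placed.

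The promoters that the results turn on are shown first. They are the bases before the start site from RefSeq (build GRCm38.p6, 5′ to 3′ along the gene), and 29 of the 36 genes had an entry. The first 4 are start sites at which a fixed set of binding letters was found, written in capitals. Slc26a3 (chr12:31437969-31438218, plus strand) carries the HNF4 letters CAAAGGTCA, and its start site had a peak in the control only. Slc3a1 (chr17:85028097-85028346, plus strand) carries the HNF4 letters CAAAGTCCA at position -39 from the start, GATA letters (AGATAA) at -119 and CDX letters (TTTATTG) at -73. In Slc7a9 (chr7:35448842-35449091, plus strand), another start site called in the control only, the capitals are GATA letters (AGATAA or its complement). In Slc10a2 (chr8:5105288-5105537, minus strand), called in all 3 libraries, they are CDX letters (TTTATTG or its complement).
Slc26a3: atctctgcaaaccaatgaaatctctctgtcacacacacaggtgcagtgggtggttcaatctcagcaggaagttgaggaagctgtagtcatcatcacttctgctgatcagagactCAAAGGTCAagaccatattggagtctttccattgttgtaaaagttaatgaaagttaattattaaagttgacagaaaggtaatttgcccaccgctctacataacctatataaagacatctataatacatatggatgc
Slc3a1: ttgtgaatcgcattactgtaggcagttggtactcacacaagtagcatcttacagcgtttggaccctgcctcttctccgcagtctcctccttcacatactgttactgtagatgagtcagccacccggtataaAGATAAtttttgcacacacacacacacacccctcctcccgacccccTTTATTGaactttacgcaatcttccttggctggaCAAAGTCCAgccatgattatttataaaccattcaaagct
Slc7a9: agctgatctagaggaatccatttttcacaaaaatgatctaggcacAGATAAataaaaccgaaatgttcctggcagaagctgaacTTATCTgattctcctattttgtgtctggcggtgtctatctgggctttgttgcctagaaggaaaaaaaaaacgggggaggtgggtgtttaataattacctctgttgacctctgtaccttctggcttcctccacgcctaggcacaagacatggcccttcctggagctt
Slc10a2: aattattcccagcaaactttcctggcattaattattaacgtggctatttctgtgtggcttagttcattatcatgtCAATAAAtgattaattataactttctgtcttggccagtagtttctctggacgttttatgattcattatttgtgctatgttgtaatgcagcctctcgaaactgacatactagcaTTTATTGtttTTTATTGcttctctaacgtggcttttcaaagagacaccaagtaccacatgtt

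The next 4 are the 100 bases before the start, with CpG pairs in capitals, shown for the CpG counts given with the start sites. Slc1a1 (chr19:28835035-28835134, plus strand) and Slc16a1 (chr3:104638564-104638663, plus strand) had a start-site peak in each DKO library but not in the control. That of Slc16a1 was centred 990 bp after the start and did not cover the bases shown. Slc9a3 (chr13:74121313-74121412, plus strand) had one in the control only. Slc51a (chr16:32487880-32487979, minus strand) had one in the control and DKO replicate 2. The 4 are not typical of their groups in CpG count. Over the 300 promoter bases, Slc16a1 (42 pairs) and Slc9a3 (25) have the most of their groups and Slc51a (3) the fewest. Slc1a1 has 32, against a median of 18.5 for the 6 start sites called in both DKO libraries only.
Slc1a1: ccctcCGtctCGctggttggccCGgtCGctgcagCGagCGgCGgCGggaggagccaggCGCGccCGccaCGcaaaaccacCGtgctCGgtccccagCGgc
Slc16a1: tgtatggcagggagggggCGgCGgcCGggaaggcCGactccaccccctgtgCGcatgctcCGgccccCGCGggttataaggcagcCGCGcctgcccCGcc
Slc9a3: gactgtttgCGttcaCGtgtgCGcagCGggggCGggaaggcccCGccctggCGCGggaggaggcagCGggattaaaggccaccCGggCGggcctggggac
Slc51a: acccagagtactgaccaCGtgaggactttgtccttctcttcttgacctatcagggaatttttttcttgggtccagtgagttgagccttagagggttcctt

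Transporter genes had regions called in the control alone more often than genes at large. A control-only region (a control peak and no DKO peak) lay at 15 of the 36 genes (41.7%), against 13.5% of the 20431 protein-coding genes placed. A DKO-only region (called in each DKO replicate but not the control) lay at 12 genes (33.3%), against 20.5% of all genes. Regions called in all 3 libraries were found at 15 genes (41.7%), fewer than the 50.5% of all genes. In 10 genes a control-only region was present without a DKO-only one (8.80% of all genes), and 7 genes had the reverse (15.8%). The genes are longer than most, with a median gene body of 26860 bp against 17727 bp, and had a median of 2 regions against 1.

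Counted by region, the same contrast held. Of the 78 regions, 21 were control-only, a share of 26.9% (Wilson 95% interval 18.3 to 37.7%, counting error over regions only), against 11.7% of the 23151 regions near any gene. DKO-only regions numbered 14, or 17.9% (11.004 to 27.9%), against 15.5%. Regions of all 3 libraries numbered 17, or 21.8% (14.1 to 32.2%), against 37.5%. The remaining 26 comprised 13 in DKO replicate 2 alone (16.7%, against 22.6%) and 4 in DKO replicate 1 alone (5.13%, against 6.24%). They also comprised 5 in the control and DKO replicate 2 (6.41%, against 5.01%) and 4 in the control and DKO replicate 1 (5.13%, against 1.46%). The control-only share thus stood above that of all genes in either count, and the DKO-only share by region was near it. With each list held to its 16977 top-scoring peaks, control-only regions made up 42.4% (18.1% near all genes) and DKO-only regions 13.6% (12.2%). The control list has that length, so only the DKO lists lost peaks and control-only regions could not become fewer.

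**Figure D1:**
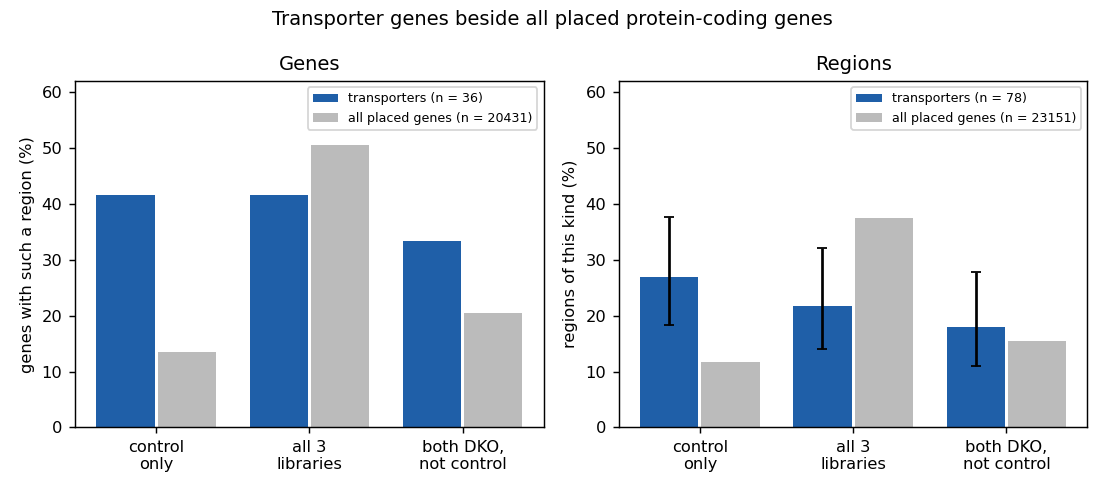
Percentage of genes with a region of each kind (left) and percentage of regions of each kind (right), for the 36 transporter genes with their 78 regions (blue) and for all placed genes (grey). Error bars are Wilson 95% intervals for the transporter regions, and the control-only bars (41.7% of genes, 26.9% of regions) stand above grey bars of 13.5% and 11.7%.

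Most of these one-sided calls were of modest strength. The 21 control-only regions had control ranks from 2.96 to 87.0 with a median of 34.8, against 29.0 for control-only regions near all genes. Of the 21, 4 reached the top quartile (19.0%, against 7.73% near all genes). The 14 DKO-only regions had a median rank of 31.8 in DKO replicate 1 and 49.6 in DKO replicate 2, against 38.4 and 51.4 near all genes. A control-only region of top-quartile score lay at 4 genes (1.26% of all genes had one), and a DKO-only region in the top quartile of both replicates lay at 1 gene, Slc11a2 (1.66% of all genes).

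**Figure D2:**
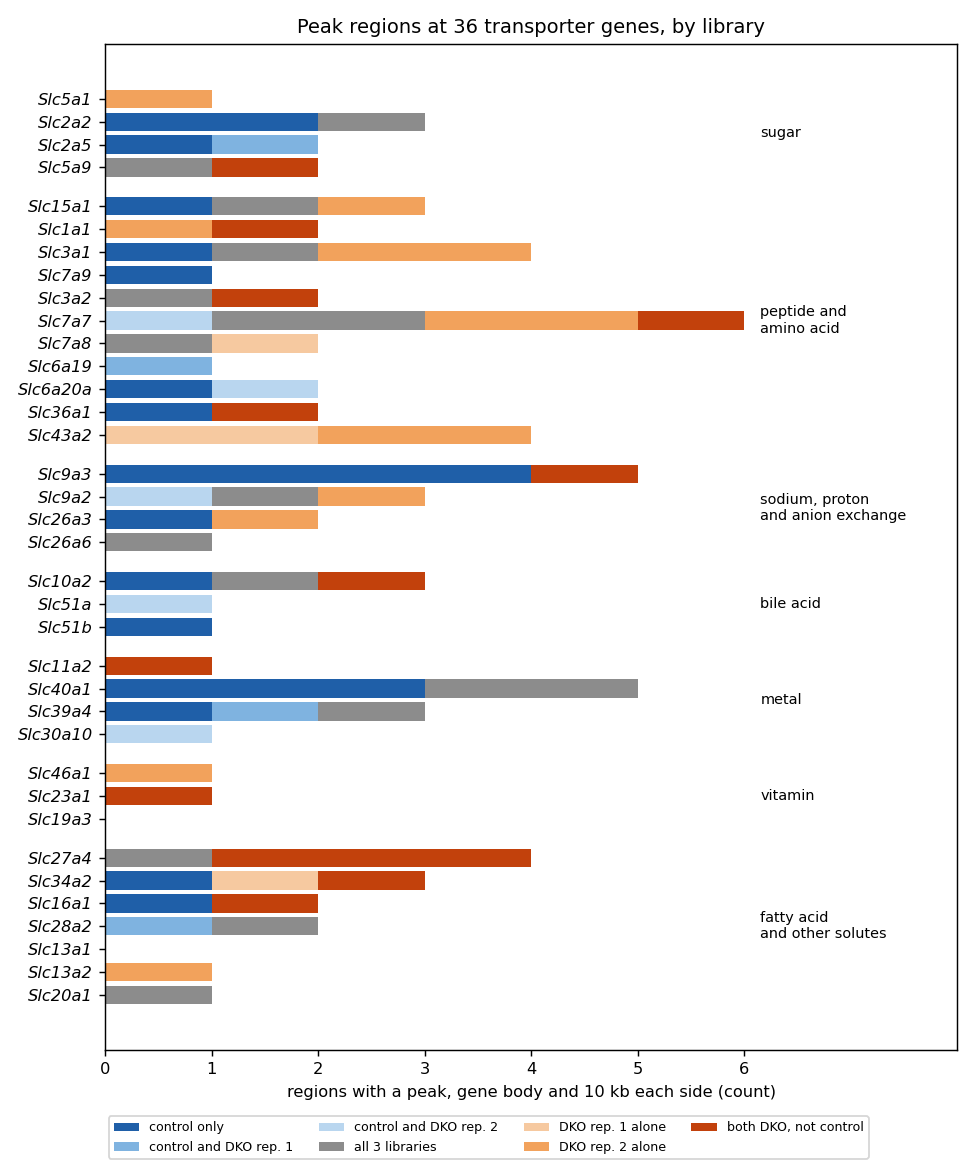
Number of peak regions at each of the 36 genes, grouped by what the transporter carries and coloured by the libraries in which the region was called. Slc9a3 has 4 control-only regions and Slc40a1 has 3, Slc27a4 has 3 DKO-only regions, and Slc13a1 and Slc19a3 have none of any kind.

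Among the sugar carriers, peaks were few. Slc5a1 encodes SGLT1, the apical sodium-glucose cotransporter, and had a single region, called in DKO replicate 2 alone with a score of 18 (rank 35.8) and centred 839.5 bp from the start site. Slc2a2 encodes GLUT2, the facilitative hexose carrier. It had control-only regions at chr3:28604484-28605084 (score 20, rank 45.5) and chr3:28635965-28636565 (score 14, rank 11.4), with the nearest DKO peak of either 8206 bp away. Between them, chr3:28620537-28621305 was called in all 3 libraries and ranked 11.4 in the control against 70.2 and 40.2 in DKO replicates 1 and 2. With each list held to its 16977 top-scoring peaks, the shared region ranked 11.4 in the control and 67.9 and 6.08 in the DKO replicates, so the control was no longer the lowest.

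Slc2a5 encodes GLUT5, the apical fructose carrier. Its region inside the gene body, at chr4:149512047-149512698, scored 25 in the control and 21 in DKO replicate 1 (ranks 65.7 and 38.4) and was not called in DKO replicate 2. A second region, control-only with a score of 16, lay in the flank shared with its neighbour Slc2a7. The regions given for Slc5a9, a sodium-dependent sugar carrier gene, may not lie at it, since its offset had 9 start-site hits against 6 for the next best. They are a DKO-only region at chr4:111574053-111574653 that ranked 34.0 and 91.4 in the replicates, and a shared region that ranked 0.937 in the control and 19.6 and 30.8 in the DKO replicates. The shared one was not called in DKO replicate 2 at equal list lengths. None of the 3 sugar genes with a known start site had a start-site peak in the control.

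For peptide uptake, Slc15a1 encodes PEPT1, the apical proton-coupled di- and tripeptide carrier. Its strongest region, at chr14:121892839-121893506, scored 46 in the control against 24 and 36 in DKO replicates 1 and 2 (ranks 95.6, 49.4 and 81.0). A control-only region in the gene body, chr14:121870736-121871336, scored 29 (rank 76.6), and the nearest DKO peak lay 19980 bp away. The shared region ranked highest in the control, and the DKO replicates differed there by -31.7 points (replicate 1 minus replicate 2). A weak peak of DKO replicate 2 alone (score 13) lay in the flank. No library had a peak at the Slc15a1 start site.

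Slc3a1 and Slc7a9 encode the heavy and light chains of the apical cystine and dibasic amino acid exchanger. At Slc3a1 a control-only region in the gene body (chr17:85451567-85452167) scored 31 (rank 80.7) and also lay within 10 kb of Prepl. The neighbouring chr17:85442617-85443295 scored 24, 14 and 20 in the control and DKO replicates 1 and 2 (ranks 62.4, 5.61 and 44.1). No peak covered the HNF4 letters CAAAGTCCA of its promoter, which begin at position -39 from the start. Peaks of DKO replicate 2 alone lay in the gene body (score 14) and, centred at -890.5 bp, before the start (score 16).
At Slc7a9 the only region of any library was the control peak over the start site, chr7:36233462-36234062, with a score of 21 (rank 50.4). The nearest DKO peaks were 51246 bp (replicate 1) and 27251 bp (replicate 2) away. It covers the GATA letters of the sequence printed above, and it lies within 10 kb of Cep89 as well.

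The neutral amino acid carriers gave few calls. Slc6a19 encodes B0AT1, the main apical carrier of neutral amino acids, and had 1 region, in the control (score 17) and DKO replicate 1 (score 19) at ranks of 29.0 and 29.5, and within 10 kb of Slc6a18 as well. Slc6a20a, an apical imino acid carrier gene, had a start-site peak at chr9:123587641-123588262 that ranked 74.2 in the control and 14.2 in DKO replicate 2 and was not called in DKO replicate 1. It also had a control-only region inside the gene (score 17). Slc1a1, the glutamate and aspartate carrier gene, had no control peak at all, and its start site was called in both DKO libraries with low scores of 14 and 11. A peak of DKO replicate 2 alone (score 18) lay in its flank.

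Slc3a2 encodes the shared heavy chain (4F2hc) of the basolateral exchangers whose light chains come from Slc7a7 and Slc7a8. A region of Slc3a2 upstream of that start site, chr19:8797380-8798030, was among the strongest at any of these genes and ranked 95.2, 90.9 and 86.3 in the control and DKO replicates 1 and 2. Its start site, chr19:8787617-8788734, was DKO-only with scores of 19 and 16. Slc7a7 had the most regions, 6. Its start-site region chr14:55028748-55029617 ranked 71.6 in the control and 4.72 in DKO replicate 2, and DKO replicate 1 had no peak there. Another, at chr14:55020354-55021200, ranked 45.5 in the control and 0.827 and 25.4 in the DKO replicates. The other shared region, upstream and near Mmp14 and Mrpl52, ranked 29.0, 66.0 and 25.4. A DKO-only region in the flank, also near Oxa1l, scored 21 and 22, and DKO replicate 2 alone had peaks with scores of 25 and 12. At Slc7a8 the shared upstream region, near Rnf212b, ranked 17.0, 34.0 and 44.1, and DKO replicate 1 alone had a weak peak (score 13).

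Slc36a1, a proton-coupled amino acid carrier gene, had a DKO-only start site (chr11:55017490-55018205, scores 17 and 21) and, 3569 bp further on, a control-only region with a score of 15. Slc43a2, a facilitative carrier gene for large neutral amino acids, had 4 regions, each called in a single DKO library with scores from 14 to 18. Its start site carried a peak of each replicate in separate windows, both also near Scarf1.

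Of the 4 ion exchanger genes, 2 had a control-only region, as had 2 of the 4 sugar, 2 of the 4 metal and 2 of the 3 bile acid carrier genes. It was 5 of the 11 peptide and amino acid, 2 of the 7 other solute and 0 of the 3 vitamin carrier genes. Over all placed genes the share was 13.5%. Slc9a3 encodes NHE3, the apical sodium-proton exchanger, and had 4 control-only regions, more than any other of the 36 genes. They scored 17, 21, 12 and 12 (ranks 29.0, 50.4, 2.96 and 2.96), and 1 of the weakest covered the start site (chr13:74258619-74259219). The nearest DKO peak was at least 18754 bp from each of them. A single DKO-only region, with scores of 13 and 15, lay in the gene body 45704 bp from the start, within 10 kb of Exoc3 too. No region of Slc9a3 ranked above 50.4 in any library.

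Slc26a3 encodes DRA, the apical chloride-bicarbonate exchanger. The control peak over its start site, chr12:32122571-32123171, scored 35 (rank 87.0), the highest-ranking control-only call of the 36 genes. From it to the closest DKO peak was 61175 bp in replicate 1 and 20174 bp in replicate 2, the latter a weak peak in the gene body (score 11). The control peak covers the HNF4 letters CAAAGGTCA, which begin at position -136 from the start. It was the only region of the 36 genes found to cover HNF4 letters of a promoter, and a match describes letters, not binding.
Slc26a6, another apical anion exchanger gene, differed. Its start-site region was called in all 3 libraries, chr9:108756104-108756797, and scored 14 in the control against 25 and 28 in the DKO replicates (ranks 11.4, 52.6 and 67.7), and it also lay near Celsr3. At Slc9a2, the gene of the exchanger NHE2, a shared region (chr1:40821514-40822152) ranked 96.6 in the control and 58.6 and 79.8 in the DKO replicates. It was the highest control rank at any of the 36 genes, and it also lay within 10 kb of Mfsd9. A flank region of Slc9a2 ranked 50.4 in the control and 30.8 in DKO replicate 2, and DKO replicate 2 alone had 1 more peak (score 20).

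**Figure D3:**
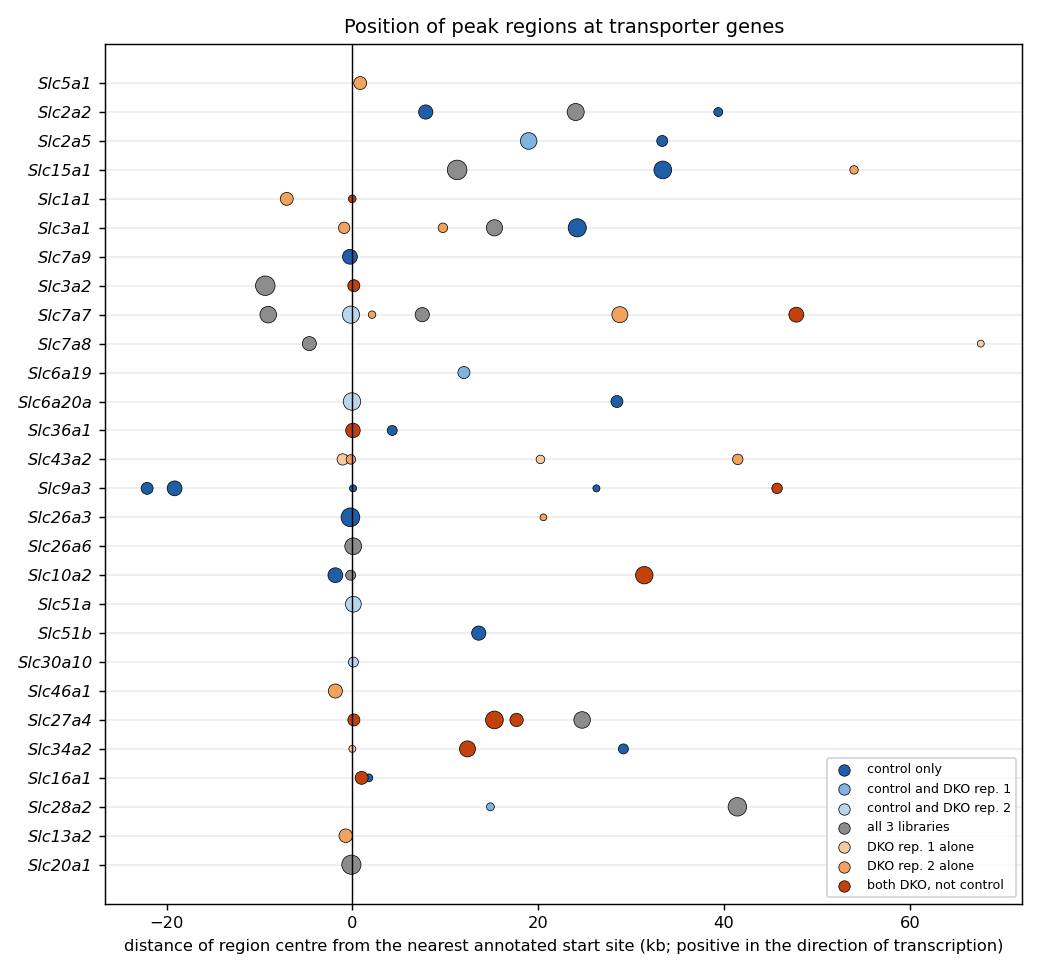
Distance in kb from the start site to the centre of each region, for the 28 genes with a start-site entry and at least 1 region, coloured by library and larger for higher ranks. Control-only points sit on the start line at Slc7a9, Slc9a3 and Slc26a3. Both-DKO points sit there at Slc1a1, Slc3a2, Slc36a1 and Slc27a4, and 990 bp after it at Slc16a1.

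Bile acid carriers had 5 regions. Slc10a2 encodes ASBT, the apical sodium-bile acid cotransporter of the ileum. Its start-site region chr8:5105034-5105859 was called in all 3 libraries with scores of 15, 16 and 12, and it covers the CDX letters printed above. At equal list lengths it was no longer called in DKO replicate 2. A control-only peak (score 21) lay 1080 bp from the nearest DKO peak. A DKO-only region in the flank beyond the gene (chr8:5073465-5074228) scored 18 and 31. Slc51a and Slc51b encode the OST alpha and beta chains of the basolateral bile acid exporter. The Slc51a start site, chr16:32487349-32488234, ranked 58.8 in the control and 8.99 in DKO replicate 2 and was not called in DKO replicate 1, and Zdhhc19 lies within 10 kb of it. Slc51b had only a control-only region (score 20), in the flank shared with Rasl12.

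Metal carriers had 10 regions, 4 of them control-only (40.0%, against 11.7% near all genes) and 1 DKO-only (10.0%, against 15.5%). Of those 4, 3 lay at Slc40a1. Slc40a1 encodes ferroportin, the basolateral iron exporter, and all of its 5 regions were called in the control. Control-only regions at chr1:45961698-45962298, chr1:45973938-45974538 and chr1:45977584-45978184 scored 18, 22 and 34 (ranks 34.8, 54.8 and 85.6), with DKO peaks no closer than 4077 bp. The shared regions beside them ranked 80.7, 73.9 and 69.8 (chr1:45966754-45967374) and 74.2, 75.6 and 91.4 (chr1:45982262-45983010) in the control and DKO replicates 1 and 2. Every library thus had peaks at Slc40a1, 5 in the control and 2 in each DKO replicate.

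Slc11a2 encodes DMT1, the apical iron importer. It had 1 region, DKO-only, at chr15:100253225-100253979 in the gene body, with scores of 35 and 33 (ranks 75.6 and 76.9). No control peak was found for 128145 bp. It was the single DKO-only region of the 36 genes in the top quartile of both replicates. With each list held to its 16977 top-scoring peaks, it ranked 73.7 and 63.8, outside the top quartile of either. At Slc39a4, the gene of the apical zinc importer ZIP4, 3 regions were called: 1 control-only, 1 in the control and DKO replicate 1, and 1 shared with ranks of 11.4, 55.7 and 35.8. All 3 also lay near other genes. Slc30a10, a manganese exporter gene, had a weak start-site peak in the control (score 15) and DKO replicate 2 (score 14).

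Vitamin carriers had 2 regions in all. Slc46a1, the proton-coupled folate carrier gene, had a peak in DKO replicate 2 alone (score 20), near Sarm1. Slc23a1, an ascorbate carrier gene, had a DKO-only region with scores of 26 and 23, which lay in the flank and also near Matr3 and Paip2. Slc19a3, a thiamine carrier gene, had no peak, the nearest being 20982 bp away in the control and 45960 and 45911 bp away in DKO replicates 1 and 2.

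Carriers of the remaining solutes had 13 regions, of which 5 were DKO-only (38.5%, against 15.5% of regions near all genes) and 2 control-only (15.4%, against 11.7%). Of those 5, 3 lay at Slc27a4. With each list held to its 16977 top-scoring peaks, 3 were DKO-only and 3 control-only. Slc27a4 encodes FATP4, a fatty acid transport protein, and had 3 DKO-only regions. At the start site (chr2:29657918-29658558, near Coq4 too) they scored 19 and 15, at chr2:29672906-29673828 23 and 33, and at chr2:29675172-29676331 21 and 13. The latter pair also lay near Urm1, and the replicates differed there in opposite directions (ranks of 46.1 and 76.9, then 38.4 and 8.99). A shared flank region ranked 65.7, 63.7 and 47.9. Slc16a1 encodes the monocarboxylate carrier MCT1. A DKO-only region centred 990 bp after its start (scores 15 and 18) and a control-only one centred at 1761.5 bp (score 13) were 146 bp apart. Only the first overlapped the 1 kb window of the start site, so the start-site call here depends on the edge of that window.

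Slc34a2, the gene of the phosphate cotransporter NaPi-IIb, had a DKO-only region in the gene body (chr5:53452616-53453311, scores 20 and 25), a peak of DKO replicate 1 alone at the start (score 13) and a weak control-only region in the flank (score 15). Slc20a1, a phosphate carrier gene of many cell types, had a strong start-site peak in all 3 libraries, with scores of 28, 47 and 49 (ranks 74.2, 88.9 and 92.0). The nucleoside carrier gene Slc28a2 had a region called in all libraries in its flank, with ranks of 78.8, 84.7 and 84.3, and a weak region in the control (score 13) and DKO replicate 1 (score 12). Slc13a2, a citrate and dicarboxylate carrier gene, had a single peak of DKO replicate 2 (score 19) before its start. Slc13a1, a sulfate carrier gene, had no peak in its window. Its closest peaks were 15293 bp away in the control and 40506 and 40512 bp away in DKO replicates 1 and 2.

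Start sites were then read apart from other places. Of the 29 genes with an entry, 10 had a start-site peak in the control (43.1% of all genes with an entry did), 10 in DKO replicate 1 (49.3%) and 16 in DKO replicate 2 (51.2%). Only Slc10a2, Slc20a1 and Slc26a6 had one in all 3 libraries (39.1% of all genes), and 9 had none (44.2%). A control peak without a DKO peak was found at Slc26a3, Slc7a9 and Slc9a3, 3 of 29 against 1.49% of all genes. A start-site peak missing from the control alone was found at 6 genes, against 7.11%: Slc16a1, Slc1a1, Slc27a4, Slc36a1, Slc3a2 and Slc43a2. Another 4, Slc30a10, Slc51a, Slc6a20a and Slc7a7, lacked only DKO replicate 1 (1.69%), and none lacked only DKO replicate 2 (0.838%). With each list held to its 16977 top-scoring peaks, the counts were 10, 8 and 6, and the membership of these groups changed. These were 34.5, 27.6 and 20.7%, against 43.1, 47.8 and 42.2% of all genes. Only the DKO lists lost peaks by this cut, so the control count could not change and control-only start sites could not become fewer. The control-only start sites then numbered 7 (2.76% of all genes), the former 3 with Slc30a10, Slc51a, Slc6a20a and Slc7a7. Only Slc16a1 and Slc36a1 were still called in each DKO library but not the control (4.27% of all genes). Peaks of equal score at the cut were kept or dropped at random. The Slc16a1 peak of DKO replicate 2 (score 18) was among them, so its place in this group rests on that draw. Slc27a4, Slc3a2 and Slc43a2 were called in DKO replicate 1 alone, and Slc1a1 had no start-site peak. Slc10a2 was then called in the control and DKO replicate 1, which left Slc20a1 and Slc26a6 called in all 3 libraries.

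The base composition of these start sites is given as a description, with no test. The 6 start sites called in both DKO libraries only held 14 to 42 CpG pairs in the 300 bases of the promoter (median 18.5), and the median over 21263 promoters was 13. The highest count, 42, was that of Slc16a1, whose DKO-only region lay outside those bases. Control-only start sites held 1 (Slc26a3), 6 (Slc7a9) and 25 (Slc9a3), so the groups overlap, and 4 of the 6 left the DKO-only group at equal list lengths. In the 100 bases printed above, Slc1a1 has 15 CpG pairs, Slc16a1 and Slc9a3 have 11 each, and Slc51a has 1. Any of the 3 HNF4 letter sets searched (CAAAGTCCA, CAAAGTTCA and CAAAGGTCA, both strands) occurred in 2 of the 36 promoter entries of the 29 genes (5.56%) and in 1.25% of all promoters. GATA letters (AGATAA) occurred in 5 entries of 4 genes (13.9%, against 9.65%), CDX letters (TTTATGG or TTTATTG) in 4 (11.1%, against 6.02%), and KLF/SP letters (GGGGCGGGG) in 2 (5.56%, against 15.4%). The HNF1 palindrome occurred in none of them and in 0.0047% of all promoters. Matches of different factors did not overlap in these genes, and the KLF/SP matches of Slc2a5 overlap each other. Most regions lay outside these 300 bases, and their sequence was not read.

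The 17 shared regions of the transporter genes had no common direction of rank. The rank in the control minus the mean DKO rank had a median of -5.70 points, against -5.47 points over 8680 such regions near all genes. Its sign turned when either DKO replicate was left out (9.92 over 22 regions without replicate 1, 1.99 over 21 without replicate 2). The SD of the difference was 33.7 points for the control and DKO replicate 1, 22.9 for the control and DKO replicate 2, and 21.6 for the DKO pair. A control rank at least 25 points under each DKO rank was found at 2 regions, those of Slc26a6 and Slc2a2, or 11.8% against 12.3% of all such regions. None was 25 points higher, where the background was 2.32%. The nearest to it were Slc3a1 (62.4 against 5.61 and 44.1) and Slc7a7 (45.5 against 0.827 and 25.4), in which the DKO replicates themselves lay far apart. With each list held to its 16977 top-scoring peaks, 11 regions were shared, and at 2 the control rank exceeded each DKO rank by 25 points or more (18.2%, against 4.48% near all genes), those of Slc15a1 (95.6 against 45.5 and 70.2) and Slc9a2 (96.6 against 55.4 and 68.3). At 1 it lay that far below (9.09%, against 7.44%), that of Slc26a6.

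**Figure D4:**
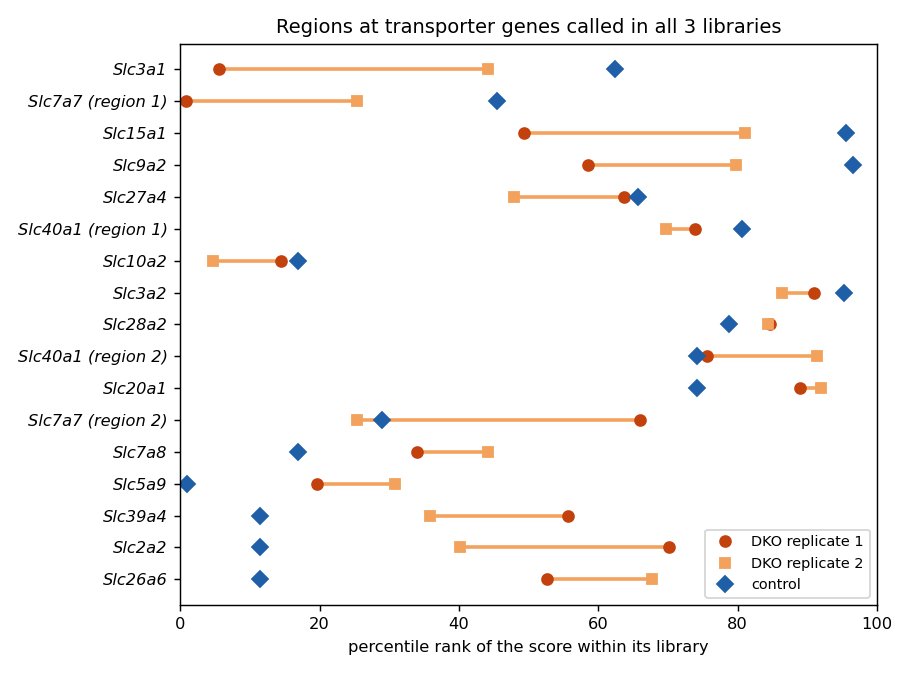
Percentile rank of the score within its library for the 17 regions called in all 3 libraries, ordered by the control rank minus the mean DKO rank. The line joins the DKO replicates, the regions of a gene are numbered by position, and the control (blue) lies below both replicates by over 25 points only at Slc26a6 and Slc2a2.

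A second list held 36 other absorption genes. Of 35 that could be placed, 13 had a control-only region (37.1%, against 13.5% of all genes) and 9 a DKO-only region (25.7%, against 20.5%). Of their 72 regions, 20 were control-only (27.8%, against 11.7% near all genes). These control-only shares were close to those of the transporters (41.7% of genes and 26.9% of regions), so the excess was not particular to the 36 genes. Abcb1a (the efflux pump P-glycoprotein), Slc4a4 (a sodium-bicarbonate cotransporter) and Kcnq1 (a potassium channel) had 3 control-only regions each, and Abcc2 and Abcg5 had 2 each. Start-site peaks were found at 14 of 28 in each of the libraries. Over all genes the shares were 43.1% in the control and 49.3 and 51.2% in DKO replicates 1 and 2.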

How the data were processed

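The data are 3 ATAC-seq peak lists. Single-end reads of 75 bp were sequenced, per the labels' protocols. The submitters' processing notes name FastQC 0.11.3, Bowtie2 2.2.6, deepTools 2.4.2, MACS 1.4.1 and build mm9, without roles or thresholds. The authors deposited 1 list per library, with a whole-number score per peak whose meaning is not given in the sources used here. Reads were not among the files used, so depth is unknown.

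Only genes of GRCm38 were at hand. Each gene was shifted by the offset, within 8 Mb, that put most gene starts of the surrounding 5 Mb on a peak (within 400 bp). A gene was kept where this offset had 1.5 times the hits of the next best, or agreed within 1 kb with the offset over 3 Mb or with those on both sides. This placed 20431 of 21887 protein-coding genes (93.3%) and all 36 transporters. On 1782 genes of 1 chromosome with simulated peaks, 99.83% of those placed came within 500 bp of the truth. The share of starts with a peak was fixed in that simulation and not matched to these data. It therefore does not give the placement error here. Region coordinates are those of the deposited lists (mm9), 1-based. Promoter coordinates are GRCm38.p6. No exon annotation was used.

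Peaks overlapping by at least 1 bp were merged into regions (Python 3.11.15, pandas 2.3.3, scipy 1.17.1). Scores were ranked within a library, and shares carry Wilson 95% intervals (statsmodels 0.14.6). The members and gene lists were chosen with earlier results of these data known. Genes were to be described for a one-sided region in the top quartile of score, a rank shift of 25 points from both DKO libraries, the most one-sided regions, or no peak. The other genes are given with fewer values, so that all 36 are accounted for. In all, 10 alternatives were run. Where lists were held to equal length, peaks of equal score at the cut were kept or dropped at random. That length was the control's own, so only the DKO lists were cut.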

Additional observations from a re-analysis of the deposited data

How the results depend on the processing

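The share of transporter regions that were control-only was above that of all genes in each of the 10 alternatives, at 25.2 to 42.4% against 10.8 to 21.6%, and so was the share of genes with such a region (27.8 to 55.6% against 8.00 to 19.7%). The share of DKO-only regions was above the background in 4 of 10. Over all alternatives 79 values stayed within the replicate spread, interval or 1.5-fold range used, 20 moved and 6 changed sign. With equal list lengths there were 9 DKO-only regions (13.6%, against 12.2% near all genes) and 11 shared ones (16.7%, against 40.1%). Control-only regions made up 42.4% (against 18.1%), and 6 genes had a start-site peak in DKO replicate 2 (20.7%, against 42.2% of all genes). The higher-scoring peaks of each list (above its median) left 3 genes with a DKO-only region (8.33%, against 13.3% of all genes). A shared region was left at 5 genes (13.9%, against 31.7%). Of the regions, 3 were DKO-only (8.82%, against 15.8% near all genes), 6 shared (17.6%, against 38.1%) and 41.2% control-only (against 10.9%). Start-site peaks then lay at 6, 2 and 2 genes in the control and DKO replicates 1 and 2. These were 20.7, 6.90 and 6.90%, against 28.5, 33.5 and 36.7% of all genes. Flanks of 25 kb gave 30 shared regions (27.0%, against 35.8% near all genes). Regions in no other gene's window left 8 DKO-only (15.1%, against 15.5%) and 11 shared ones (20.8%, against 32.2%). Leaving out a DKO replicate gave 14 to 20 genes with a DKO-only region (38.9 to 55.6%, against 26.9 to 36.8% of all genes). There were then 18 to 27 DKO-only regions (27.7 to 36.5%, against 28.1 to 40.6% near all genes). Control-only regions made up 33.8 to 40.0% (against 14.1 to 21.6%). The median rank difference was then 1.99 to 9.92 points in place of -5.70. That difference was 1.97 for those higher-scoring peaks, 7.00 in gene bodies without flanks, 0.45 with offsets over 3 Mb and 6.61 for regions in no other gene's window. The cause was not tested.

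No paired analysis was possible because only 1 control library is at hand and nothing numbers it. Start-site counts use no merging, so the merging and replicate alternatives do not bear on them. The 3 Mb offset of Slc5a9 differed from the one used by -5098788 bp. Depth is unknown, and signal under the calling threshold was not analysed here.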
